A study of Mus musculus with 16 samples.

Results

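This report describes what oral vitamin B12 (cobalamin) was accompanied by in the kidneys of mice without diabetes. It takes 8 of the 16 kidney RNA libraries of the series, the 4 labelled non-diabetic and B12-treated (ND_B12) and the 4 labelled non-diabetic and control (ND_C), and a gene was tested where it had at least 100 counts over all 16 libraries, which left 25408 of 57186 genes. All mice were male. Every animal of the series, controls included, carried 2 copies of the H allele of Elmo1, an allele made to raise the level of Elmo1, which encodes an activator of the small GTPase Rac1. The non-diabetic mice were Elmo1H/HIns2+/+, and ND_B12 mice drank water with B12 at 10 mg/kg of body weight per day from 8 weeks of age. The labels give 16 weeks of treatment, and the methods of the study give a shorter one, so the age of the kidneys is not given here. The other 8 libraries, used for the shared estimate of the spread and for the test of a difference between the effects, are Elmo1H/HIns2A/+ mice with the Akita allele of Ins2, which misfolds proinsulin and makes the mice diabetic, without B12 (D_C, n = 4) and with it (D_B12, n = 4). Each library is 1 kidney sample; nothing in the labels says that animals were pooled.

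Cobalamin is filtered at the glomerulus bound to transcobalamin and is taken back by proximal tubule cells through megalin and cubilin, which makes the kidney a store of the vitamin. Inside cells it serves methionine synthase in the cytosol, which ties it to folate and methyl group metabolism, and methylmalonyl-CoA mutase in mitochondria. The kidney also runs a circadian clock, in which BMAL1 with CLOCK or NPAS2 activates the Per and Cry genes, whose proteins repress their own activation, while RORα and the REV-ERBs act on Bmal1. The level of a clock gene therefore depends on the hour at which a kidney was taken as well as on any treatment.

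The 8 libraries held 65311948 to 84763426 counts each, and the 28 pairs among them had correlations of log2 values of 0.976 to 0.984, so none was a copy of another. Elmo1 had 497, 347, 331 and 376 normalized counts in ND_C 1 to 4 and 357, 295, 326 and 346 in ND_B12 1 to 4, and Ins2 had 0 counts in all 16 libraries, so the Ins2 genotype could not be read from the kidney RNA. The genotype was therefore looked at through a diabetes index, the mean of genes higher in diabetes minus the mean of genes lower in it, with the genes chosen in the 15 other libraries and scaled so that 0 is the mean of the other non-diabetic and 1 the mean of the other diabetic libraries. It was 0.037, 0.062, 0.038 and 0.267 in ND_C 1 to 4 and 0.167, 0.128 and -0.208 in ND_B12 1 to 3. The library labelled ND_B12 4 stood at 0.796, within the range of the diabetic libraries other than D_C 1, and the library labelled D_C 1 stood at 0.160, within the range of the non-diabetic ones. A clock score, the mean log2 CPM of Per1, Per2, Per3, Cry1, Dbp, Nr1d2 and Ciart minus that of Bmal1, Clock and Npas2, was 2.15, 1.98 and 1.89 in ND_B12 2, 3 and 4 and -0.37 in ND_B12 1, against -0.67, 0.94, 0.20 and 1.48 in ND_C 1 to 4. The counts over all genes are therefore given also without ND_B12 4, without ND_B12 1 and without both, and genes and lists where leaving them out moves the value. The group means that the study published match its libraries in another arrangement than the labels. There ND_B12 1 stands with the untreated non-diabetic mice, ND_C 3 and D_C 1 with the B12-treated non-diabetic mice, ND_B12 4 with the B12-treated diabetic mice, and the other libraries labelled D_C and D_B12 change places. Which arrangement is right cannot be told here. The labels are followed throughout, and ND_C 1, 2 and 4 and ND_B12 2 and 3 are the non-diabetic libraries that have the same group in both. The dates in the labels, whose meaning is not given, run from 7 to 21 August in ND_C and from 21 to 28 August in ND_B12, and the only date with both groups, 21 August, holds ND_C 4 and ND_B12 1. Date and treatment can thus barely be told apart.

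**Figure D1:**
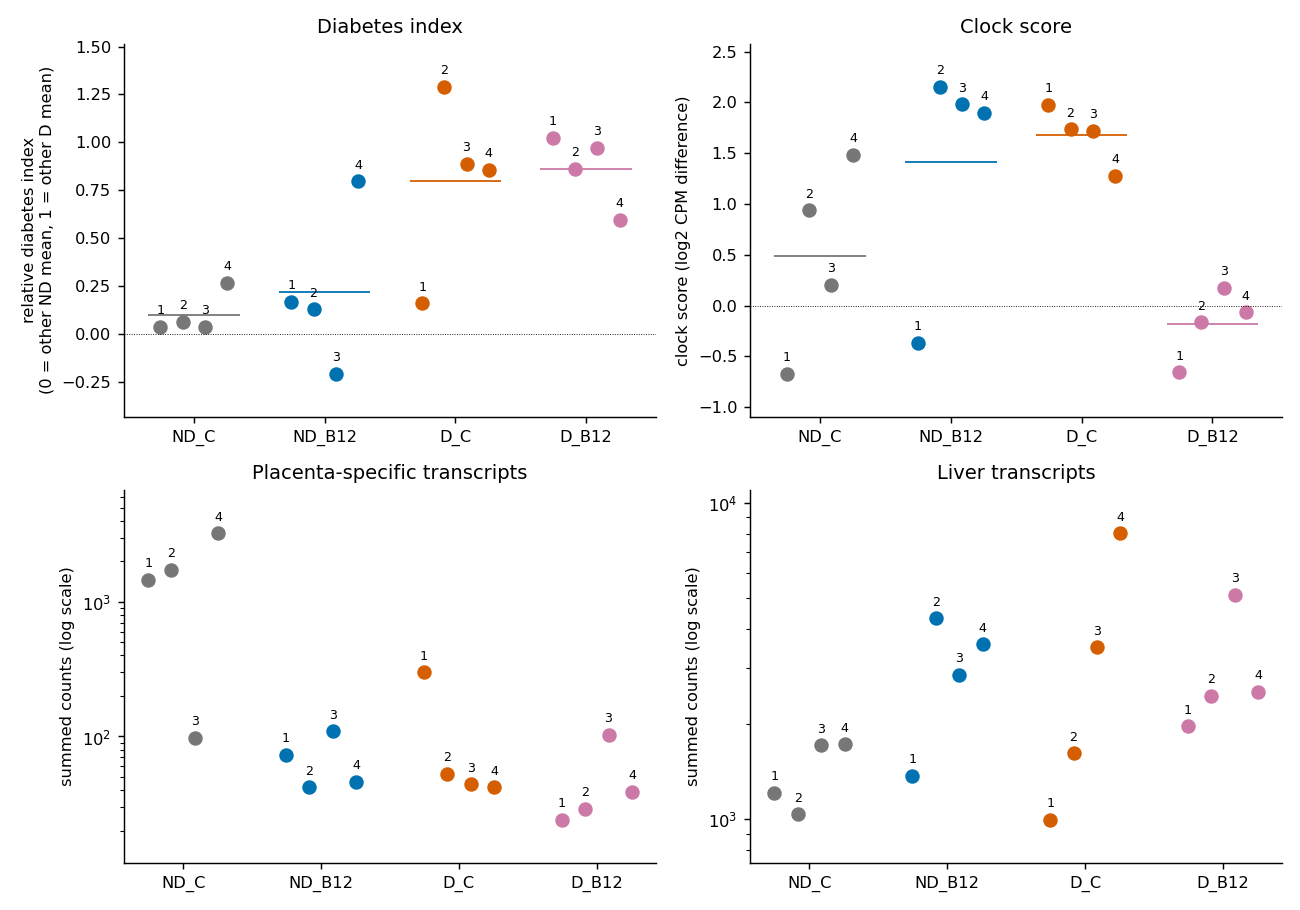
Diabetes index, clock score (log2 CPM difference), and summed counts of placenta-specific and of liver transcripts (log axes) in each of the 16 libraries, by labelled group, with points numbered by replicate and lines for group means in the upper panels. ND_B12 4 lies at 0.796 on the diabetes index among the diabetic libraries, ND_B12 1 has a clock score of -0.37 apart from the other ND_B12 libraries, and placental transcripts are highest in ND_C 1, 2 and 4.

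A kidney of a male mouse holds neither placenta nor liver, yet transcripts of both were found in part of the libraries. In most of the 8 libraries they went with the group. The exceptions were ND_C 3, whose placental counts lay in the ND_B12 range, and ND_B12 1, whose liver counts lay in the ND_C range. Placental genes were seen in ND_C 1, 2 and 4. Psg21, a pregnancy-specific glycoprotein, had 150, 183, 7 and 344 counts in ND_C 1 to 4 and 0, 3, 20 and 4 in ND_B12 1 to 4. Prl3b1, placental lactogen II, had 137, 124, 0 and 235 counts against 0 in each ND_B12 library, and Ctsj, a placental cathepsin, had 96, 153, 0 and 177 against 0 in each. Over the whole list of placental genes, chosen after their values were seen, the summed counts were 1462, 1721, 98 and 3234 in ND_C and 42 to 109 in ND_B12, and D_C 1 had 300. These are multigene families, and reads of near-identical members could be split among them. Liver transcripts, in a list also chosen after values were seen, summed to 1037 to 1723 counts in ND_C, 1373 in ND_B12 1, and 4321, 2860 and 3572 in ND_B12 2 to 4. Cps1, the urea cycle enzyme of hepatocytes, had 0, 34, 44 and 20 counts in ND_C and 26, 169, 94 and 189 in ND_B12. Cyp2a12, a liver cytochrome P450, was at 0 in each ND_C library and had 8, 10, 14 and 13 counts in ND_B12. D_C 4, at 8021, held the most liver counts of all libraries. Where these transcripts come from was not tested.

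With all 8 libraries, no gene differed between ND_B12 and ND_C at an adjusted p below 0.05 (edgeR quasi-likelihood test, 0% of 25408 genes, smallest adjusted p = 0.570). An unadjusted p below 0.05 was reached by 1937 genes (7.62%), 933 higher (3.67%) and 1004 lower (3.95%) with B12. Adding a log2 fold change of 0.5 or more in either direction, as a volcano plot would, left 810 genes (3.19%), of which 144 were higher (0.567%) and 666 lower (2.62%). The median log2 fold change of all genes was 0.00, with 12815 above 0 and 12593 below. Under upper-quartile scaling that median moved to -0.03 and the genes with p below 0.05 were 550 higher and 1232 lower, so the balance of directions among small differences rests on the scaling. The 4 ND_B12 values lay all above the 4 ND_C values for 674 genes (2.65%) and all below for 549 (2.16%). Without ND_B12 4 the genes with an unadjusted p below 0.05 were 1130, and without ND_B12 1 they were 2443, with no gene past the adjusted threshold either time (smallest adjusted p = 1.00 and 0.121). Without both, 1325 genes had p below 0.05 and none passed (smallest adjusted p = 0.0771). Leaving out ND_C 3 as well keeps the 5 libraries placed alike in both arrangements, and then 1198 genes had p below 0.05 and none passed (smallest adjusted p = 0.176). In those 5 the log2 fold change was 0.96 for Car9, 0.45 for Ppara, 0.22 for Rora, -1.38 for Bmal1 and -0.91 for Cd27, which are all described with the full set below. The groups of Car9, Ppara, Rora and Cd27 do not overlap in the 8 libraries, so their signs were fixed in advance and only their sizes could change. Without ND_C 3 alone, the control library with the fewest placental counts, Psg16 and H19 passed (adjusted p = 0.0202 for each).

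DESeq2 on the same libraries called 6 genes. They were not named by the rule for named genes and are given because they are so few. Epas1, which encodes HIF-2α, had 15711, 18198, 17143 and 18836 counts in ND_C and 19456, 21271, 17363 and 23242 in ND_B12, a log2 fold change of 0.26 ± 0.06 (SE) with an adjusted p of 0.0470 by DESeq2 and of 0.570 by edgeR. The difference was 0.24 without ND_B12 4 and 0.27 without ND_B12 1. Psg16, H19 and Nrk, all highly expressed in placenta or fetus, were lower with B12 and highest in ND_C 1, 2 and 4. Psg16 is itself in the placental list. H19, an imprinted long noncoding RNA, had 154, 134, 10 and 341 counts in ND_C and 10, 18, 26 and 14 in ND_B12, and Nrk had 42, 51, 5 and 90 against 0, 0, 0 and 6. The predicted gene Gm28042 was lower (116, 141, 202 and 328 counts in ND_C and 96, 42, 35 and 54 in ND_B12). Gm49388, also a predicted gene, had 95, 1, 0 and 35 counts in ND_B12 and 0 in every ND_C library, nearly all of them in ND_B12 1 and 4.

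None of the genes named below passed the adjusted test. They are those with the smallest unadjusted p among genes whose groups did not overlap, with a log2 fold change of 0.5 or more in either direction and at least 50 normalized counts, which 11 higher and 47 lower genes met. All of the 11 and the 12 lower ones with the smallest p were taken. With 4 libraries a side, an exact permutation test of 1 gene cannot give a two-sided p below 0.0286, and each of the 23 gives that value because it was chosen for it.

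On the build of the count table, GRCm39, Car9 lies on chr4:43506966-43513729 on the plus strand, Lcp2 on chr11:33996920-34042426 on the plus strand, Cd27 on chr6:125209585-125213988 on the minus strand, and Nlrp1b on chr11:71043928-71121559 on the minus strand; all values are counts over whole genes.

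Among the higher genes, Car9, carbonic anhydrase 9, a cell surface enzyme that is a known target of hypoxia-inducible factors, had 395, 421, 541 and 439 normalized counts in ND_C and 723, 802, 826 and 582 in ND_B12, a log2 fold change of 0.71 ± 0.21. ND_B12 4 was its lowest B12 library, and without it the difference was 0.81. Mtarc1, a molybdenum enzyme of the outer mitochondrial membrane, had 32.0, 52.7, 61.2 and 48.0 normalized counts against 88.4, 133, 92.0 and 82.2 (1.03 ± 0.35). Efna3, an ephrin ligand, had 51.2, 32.8, 66.8 and 38.4 against 69.9, 95.3, 83.3 and 99.6 (0.89 ± 0.28), with ND_C 3 only just below ND_B12 1. Tamalin, a scaffold protein, went from 203 to 251 in ND_C and from 282 to 396 in ND_B12 (0.54 ± 0.14). Tstd1, a sulfurtransferase domain protein whose gene overlaps Usf1 on the same strand, spanned 294 to 431 and 465 to 607 (0.60 ± 0.16). Sgip1, which acts in endocytosis, spanned 89.5 to 111 and 129 to 162 (0.56 ± 0.16). Ptprr, a receptor tyrosine phosphatase, was at 0.54 ± 0.21 and Lrrc20 at 0.51 ± 0.20, and these 2 lay close to the edge of the rule on fold change. All of these stayed between 0.42 and 1.11 without ND_B12 4.

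Apob and Cntf met the rule in another way. Apob, the structural protein of lipoproteins, had 54290, 47516, 47301 and 43530 normalized counts in ND_C and 58816, 56491, 57331 and 100286 in ND_B12, so that ND_B12 4 alone took the log2 fold change to 0.51 ± 0.21. It was 0.26 without that library. Cntf, ciliary neurotrophic factor, had 79.0, 84.5, 78.2 and 0 normalized counts in ND_C and 138, 85.4, 109 and 90.9 in ND_B12. Its groups all but touch, 1 control is at 0, and the gene overlaps Gm44505 on the same strand, so its counts are uncertain.

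Lower genes known from immune cells or their signalling are given first. Cd27, a costimulatory receptor of T and B cells, had 146, 140, 155 and 169 normalized counts in ND_C and 64.4, 69.5, 92.0 and 66.7 in ND_B12, a log2 fold change of -1.06 ± 0.27. Lcp2, the adaptor SLP-76 of immune receptor signalling, had 255, 186, 148 and 187 against 126, 133, 109 and 75.4 (-0.80 ± 0.20). Nlrc5, the transactivator of MHC class I genes, had 862, 710, 504 and 595 against 491, 368, 393 and 261 (-0.82 ± 0.22), with ND_B12 1 close to ND_C 3. Cd53, a tetraspanin of leukocytes, went from 273 to 408 in ND_C and from 198 to 243 in ND_B12 (-0.51 ± 0.15). Rasal3, a Ras GTPase regulator of blood cells, spanned 102 to 192 and 77.4 to 85.2 (-0.70 ± 0.21). Nlrp1b, an inflammasome sensor with near-identical neighbours, spanned 90.5 to 128 and 41.0 to 60.0 (-1.003 ± 0.25), and it remained at -1.07 without ND_B12 4 and -1.06 without ND_B12 1.

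The other lower genes have various roles. Afp, alpha-fetoprotein, had 111, 175, 73.6 and 220 normalized counts in ND_C and 57.9, 54.6, 64.7 and 67.7 in ND_B12 (-1.24 ± 0.31). Its control values had the same order over libraries as the summed placental counts, with ND_C 3 the lowest and ND_C 4 the highest. Ptchd1, a membrane protein best known in brain, spanned 78.7 to 125 and 39.8 to 66.6 (-1.01 ± 0.26). Kif5a, a kinesin heavy chain, spanned 180 to 209 in ND_C and 131 to 139 in ND_B12 1 to 3, with ND_B12 4 at 71.6 (-0.69 ± 0.21, and -0.51 without that library). Myom3, a muscle M-band protein, was at -0.64 ± 0.19, Csmd1, a complement regulator, at -0.56 ± 0.16, and Idi1-ps2, a pseudogene of isopentenyl-diphosphate isomerase whose reads could belong to its parent, at -0.55 ± 0.17. In the only pair of libraries with the same label date, ND_B12 1 minus ND_C 4, the log2 difference was 0.72 for Car9, 0.87 for Mtarc1, 0.41 for Tamalin, -1.38 for Cd27, -0.57 for Lcp2 and -0.74 for Nlrp1b. These are single libraries with no spread, and the signs were fixed by the choice of genes whose groups do not overlap.

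**Figure D2:**
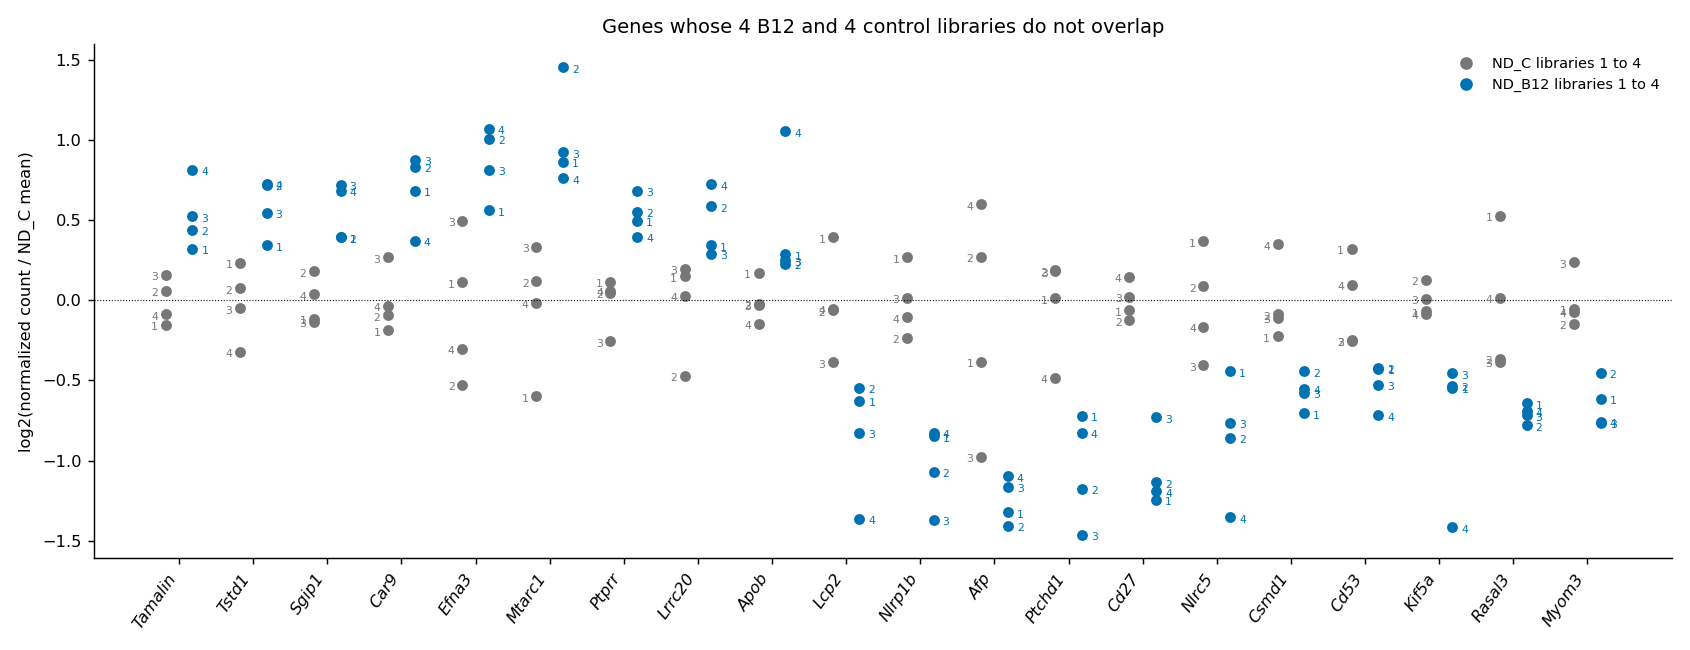
Normalized counts of 9 higher and 11 lower genes in the 8 non-diabetic libraries, as log2 of the ratio to the ND_C mean (vertical axis), with 1 numbered point per library. The B12 and control libraries do not overlap for any of them because that is how they were chosen; Apob and Kif5a are stretched by ND_B12 4.

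The genes that take up and use cobalamin differed little between the groups. Of the 11 uptake genes tested, 8 were higher with B12 and 0 had an unadjusted p below 0.05, and their median log2 fold change was 0.08 beside 0.00 for all genes. Of the 13 genes for processing and use, 10 were higher, 1 with p below 0.05 beside 3.67% of all genes, and the median was 0.08. Cubn, cubilin, the receptor that takes cobalamin-laden proteins back from the filtrate, had 75114, 75830, 62262 and 79909 normalized counts in ND_C and 81385, 80117, 82892 and 98614 in ND_B12 (0.23 ± 0.13). The groups did not overlap, but ND_C 4 lay just under the lowest B12 library. ND_B12 4 was the highest, and without it the difference was 0.15. Lrp2, megalin, its partner, had 361791, 388345, 315799 and 354569 against 428871, 374359, 384577 and 399229, which overlapped (0.16 ± 0.13). Amn, which anchors cubilin, was at -0.01 ± 0.11, and Dab2, the endocytic adaptor of megalin, at 0.08 ± 0.08.

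Tcn2, transcobalamin itself, was at 0.06 ± 0.06, its receptor Cd320 at -0.08 ± 0.09, and Lmbrd1, which releases cobalamin from lysosomes, at 0.12 ± 0.06. Asgr1, in the uptake list for its role in liver, is counted among the 11 uptake genes and had their highest log2 fold change, 2.40. It is not in the liver list described above. Of the enzymes, Mtr, methionine synthase, spanned 3281 to 3838 normalized counts in ND_C and 2988 to 4172 in ND_B12 (-0.05 ± 0.09), and its highest value was that of ND_B12 1. Mtrr, which keeps methionine synthase active, was at 0.11 ± 0.07. Mmut, methylmalonyl-CoA mutase, had 18437, 19607, 19706 and 17950 against 21404, 19857, 20212 and 19740, groups that did not overlap by a small gap (0.11 ± 0.09). Pcca and Pccb, the subunits of propionyl-CoA carboxylase upstream of it, were at 0.10 ± 0.05 and 0.11 ± 0.06. Mmachc, which trims cobalamin after uptake, was at 0.02 ± 0.07. Hcfc1, a transcriptional regulator of Mmachc, had 8342, 7773, 7267 and 7443 against 9844, 8015, 8117 and 8972 (0.19 ± 0.07, edgeR adjusted p = 0.602), and it was at 0.13 without ND_B12 1.

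Summed over each list, the difference was small and free of overlap. The uptake genes together took 6908 to 7979 CPM in ND_C and 8002 to 8499 in ND_B12, a sum in which Lrp2 had the largest part. The processing genes took 834.9 to 890.2 CPM and 893.9 to 963.9, and the genes of folate, methionine and methyl group metabolism 4534 to 4698 and 4730 to 5035. These 3 of 48 lists were the ones whose 4 B12 libraries all lay above the 4 controls, and the list of MHC class II genes was the only one with all below. Of single genes, 2.65% lay all above and 2.16% all below, and for the uptake genes the highest control, at 7979 CPM, nearly met the lowest B12 library, at 8002. In the methyl group list, 29 of 38 tested genes were higher and 9 lower, 7 of the higher with p below 0.05 beside 3.67% of all genes, with a median of 0.04. The 7 became 2 without ND_B12 4, beside 520 of all 25408 genes higher, and 1 without ND_B12 1 and 4, beside 618. Dmgdh, dimethylglycine dehydrogenase, which passes 1-carbon units from choline to folate, had 9655, 9136, 9808 and 10383 normalized counts in ND_C and 11905, 10456, 11191 and 11777 in ND_B12 (0.22 ± 0.06). Mthfd1, the trifunctional folate enzyme of the cytosol, was at 0.18 ± 0.08 with ND_B12 4 the highest at 22851. Mthfd1l, its mitochondrial relative, had 91.8, 86.5, 110 and 85.4 against 78.6, 174, 187 and 191. It was thus high in ND_B12 2 to 4 and at the control level in ND_B12 1, the B12 library that the clock score also set apart. Over the other libraries its order was not that of the score. The log2 fold change of Mthfd1l went from 0.76 ± 0.27 to 0.98 without ND_B12 1. Mat1a, the liver methionine adenosyltransferase, is itself in the liver list. It had at most 28.3 normalized counts in a control and 19.7, 72.5, 58.4 and 133 with B12.

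**Figure D3:**
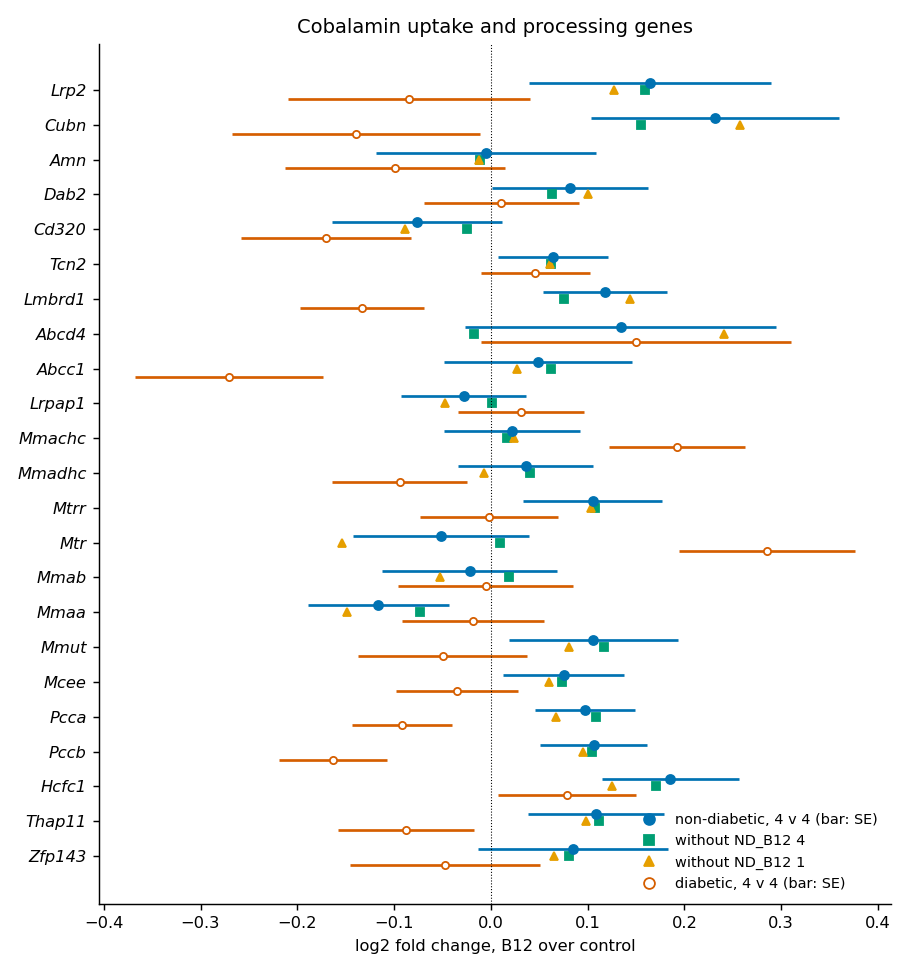
Log2 fold change of B12 over control (horizontal axis) for 23 genes of cobalamin uptake and processing, in non-diabetic kidneys (filled points, bars are the SE), without ND_B12 4, without ND_B12 1, and in diabetic kidneys (open points). All filled points lie between -0.12 and 0.23; Asgr1 is left out as a liver transcript.

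Several clock genes set ND_B12 1 apart from the other B12 libraries. Bmal1, the core activator, had 1115, 513, 727 and 324 normalized counts in ND_C 1 to 4 and 1063, 254, 244 and 226 in ND_B12 1 to 4. ND_B12 1 thus stood with the highest control, and the other 3 below all controls. The log2 fold change was -0.58 ± 0.45 with all libraries and -1.46 without ND_B12 1. The score that set ND_B12 1 apart is itself made of Bmal1, Npas2, Clock, Per1, Per2, Per3, Cry1, Dbp, Nr1d2 and Ciart. Leaving that library out therefore tends to widen the differences of these genes, and of the clock lists that hold them, by the choice alone. The values without it are no separate support. Npas2, an alternative partner of BMAL1, had 800, 282, 493 and 181 against 695, 120, 196 and 222 (-0.50 ± 0.48, and -1.28 without ND_B12 1). Nfil3, a repressor of D-box genes, was at -0.63 ± 0.41, Clock at -0.10 ± 0.12 and Bmal2 at 0.44 ± 0.31.

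The groups did not overlap for Rora, a nuclear receptor that activates Bmal1. Rora had 9082, 10200, 9868 and 8949 normalized counts in ND_C and 11447, 11292, 10529 and 12393 in ND_B12 (0.27 ± 0.07). It was as high in ND_B12 1 as in the others, and it was at 0.22 without ND_B12 4 and 0.27 without ND_B12 1. Among the repressors, 8 of 10 were higher with B12, with a median of 0.41, which was 0.23 without ND_B12 4 and 0.58 without ND_B12 1. Per1 had 1912, 3081, 3431 and 1755 against 2225, 4358, 4791 and 5720 (0.75 ± 0.24, and 0.97 without ND_B12 1). Cry1 had 180, 208, 213 and 263 against 233, 468, 435 and 244 (0.68 ± 0.25), and Cry2 had 1074, 1417, 1221 and 1755 against 1252, 2318, 2322 and 2465 (0.62 ± 0.22). In both ND_B12 1 lay inside the control range, and for Cry1 so did ND_B12 4. Ciart, a repressor that acts on BMAL1 and CLOCK, was at 0.54 ± 0.37 and at 0.04 without ND_B12 4, whose 882 normalized counts were the highest. Per3 was at 0.28 ± 0.22, Per2 at 0.19 ± 0.20, Nr1d2 at 0.21 ± 0.11, Bhlhe41 at 0.53 ± 0.34, Bhlhe40 at -0.08 ± 0.16 and Nr1d1, REV-ERBα, at -0.17 ± 0.19.

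Among the outputs of the clock, some set ND_B12 2, 3 and 4 above all controls and some did not. Dbp, a D-box activator with one of the widest daily swings in kidney, had 2082, 4180, 2772 and 6509 normalized counts in ND_C and 2148, 6318, 6116 and 6988 in ND_B12 (0.48 ± 0.35), and ND_C 4 lay above ND_B12 2 and 3. Its relatives Hlf and Tef were at 0.35 ± 0.12 and 0.19 ± 0.10. Hlf had 13196, 13590 and 13796 in ND_B12 2 to 4, above all controls, and 10050 in ND_B12 1. Usp2, a deubiquitinase, was at 0.22 ± 0.14, Wee1, a cell cycle kinase, at 0.32 ± 0.15 and Nampt, which makes the precursor of NAD, at 0.24 ± 0.10. Of 20 output genes, 14 were higher, 7 with p below 0.05 beside 3.67% of all genes, with a median of 0.22. Without ND_B12 1 the genes with p below 0.05 were 11 higher and 1 lower, beside 1164 and 1279 of all 25408 genes. In the pair with the same label date, ND_B12 1 minus ND_C 4, the signs were the opposite for Bmal1 (1.71) and Dbp (-1.60). The hour of collection was not in the labels. The study reports a single window of the day for its samples, and whether the hour differed between libraries was not tested.

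**Figure D4:**
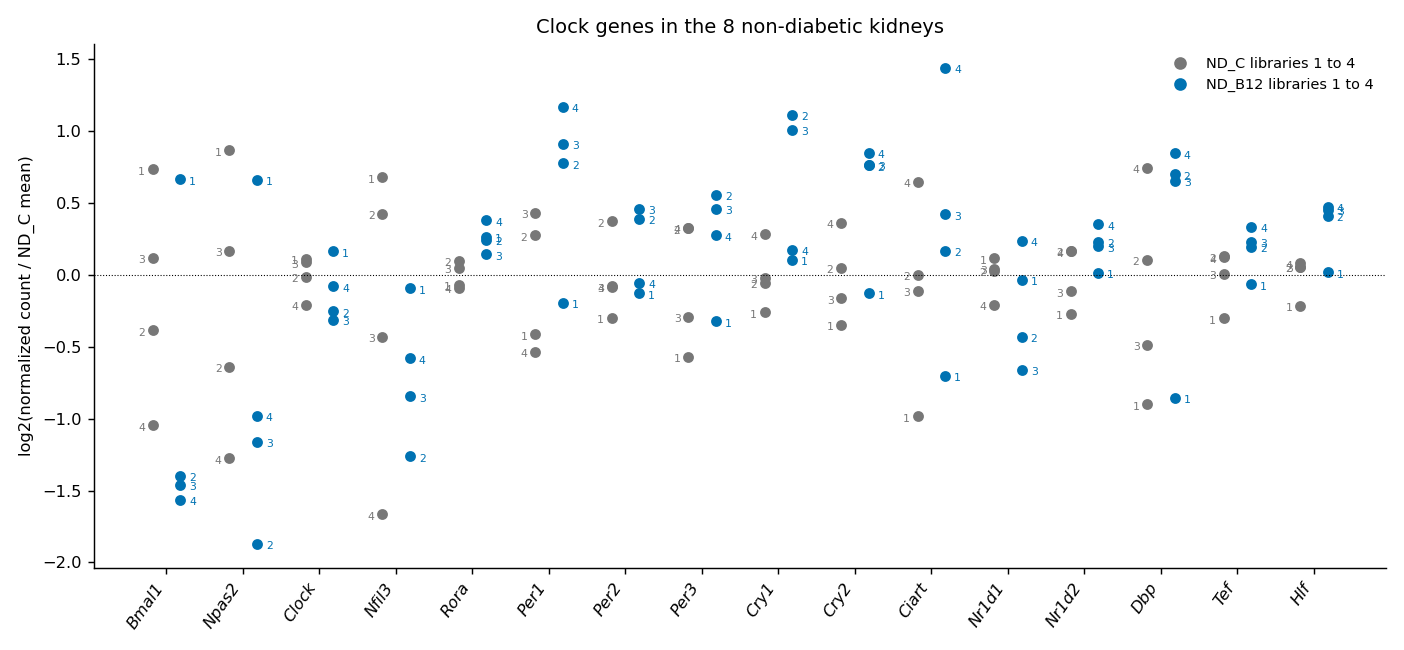
Normalized counts of 16 clock genes in the 8 non-diabetic libraries as log2 of the ratio to the ND_C mean (vertical axis), with 1 numbered point per library. ND_B12 2, 3 and 4 lie together for Bmal1, Cry2, Dbp and Hlf, with ND_B12 1 among the controls.

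E-boxes, the letters CACGTG read by BMAL1 and its partners, and D-boxes, TTATGTAA on either strand, were looked for in RefSeq promoters of the clock genes, windows of 250 bases before to 50 after a start. Of 22 genes, 19 had a promoter in the table, 5 of them with an E-box (Per1, Cry1, Ciart, Bhlhe41 and Tef) and 1, Per3, with a D-box. Of all 32851 windows, 7.15% held an E-box and 0.938% a D-box. Counted by gene, as for the clock genes, the shares were 8.09% and 1.11% of 27025 genes. Shown are the windows of 3 repressors whose normalized counts in ND_B12 2, 3 and 4 were all above the control mean, with E-boxes in capitals and coordinates of the build GRCm38.p6.
Per1, plus strand, chr11:69098699-69098998: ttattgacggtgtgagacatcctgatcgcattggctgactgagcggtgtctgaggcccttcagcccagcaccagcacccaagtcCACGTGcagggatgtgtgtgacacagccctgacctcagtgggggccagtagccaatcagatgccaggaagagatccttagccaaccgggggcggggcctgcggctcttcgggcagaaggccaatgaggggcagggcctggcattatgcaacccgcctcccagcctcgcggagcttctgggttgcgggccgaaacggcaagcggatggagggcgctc
Cry1, minus strand, chr10:85185005-85185304: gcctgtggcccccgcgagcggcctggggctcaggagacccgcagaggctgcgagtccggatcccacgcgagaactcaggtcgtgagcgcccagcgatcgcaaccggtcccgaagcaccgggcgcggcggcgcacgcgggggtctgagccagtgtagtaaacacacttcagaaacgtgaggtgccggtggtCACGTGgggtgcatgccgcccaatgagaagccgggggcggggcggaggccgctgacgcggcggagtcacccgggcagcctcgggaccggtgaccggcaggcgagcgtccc
Ciart, minus strand, chr3:95882179-95882478: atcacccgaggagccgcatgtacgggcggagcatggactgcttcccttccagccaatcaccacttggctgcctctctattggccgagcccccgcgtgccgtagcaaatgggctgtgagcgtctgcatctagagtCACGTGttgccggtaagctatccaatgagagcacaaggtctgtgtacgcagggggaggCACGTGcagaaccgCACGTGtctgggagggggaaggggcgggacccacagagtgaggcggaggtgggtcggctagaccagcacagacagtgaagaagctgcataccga
The E-box began 166 bases before the start in Per1, 60 before in Cry1, and 116, 58 and 44 before in Ciart. Per2, Bhlhe40 and Wee1 had no window in the table. Rora and Dbp held neither motif in theirs.

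Among genes of lipid and glucose use, some differences held without ND_B12 4 and others did not. Ppara, the nuclear receptor for fatty acids that drives their oxidation, had 6663, 7029, 7087 and 7056 normalized counts in ND_C and 7451, 9374, 9452 and 10312 in ND_B12, a log2 fold change of 0.40 ± 0.09 (edgeR adjusted p = 0.570). It was at 0.33 without ND_B12 4, 0.49 without ND_B12 1 and 0.44 without both, and ND_B12 1 was again the B12 library nearest to the controls. Cpt1a, a PPARα target that brings fatty acids into mitochondria, had 42955, 41157, 37898 and 42258 against 43463, 47263, 48718 and 55667 (0.25 ± 0.08). The list of fatty acid oxidation genes as a whole did not keep this. Of 33 genes 28 were higher, with a median of 0.09, but without ND_B12 4 only 11 were higher and the median was -0.03. Fabp1, the liver fatty acid binding protein, is itself in the liver list and was at 1.61 ± 0.45 from at most 23.8 normalized counts in a control.

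In the glucose list, 28 of 30 genes were higher with a median of 0.15, 4 of them with p below 0.05 beside 3.67% of all genes. Without ND_B12 4 the median was 0.06 with 1 such gene, beside 520 of all 25408 genes. Txnip, a sensor of glucose that limits its uptake, had 32879, 24553, 27011 and 32271 normalized counts against 34069, 34271, 30828 and 60751, so its 0.46 ± 0.20 was 0.18 without ND_B12 4. Hk1, hexokinase 1, had 6903, 6454, 6096 and 7679 against 8000, 8306, 7402 and 7772 (0.22 ± 0.09, and 0.22 without ND_B12 4). Cyp2c23, the main epoxygenase of arachidonic acid in mouse kidney tubules, had the smallest unadjusted edgeR p among the genes named here, leaving out Psg16, H19, Nrk and the predicted genes. It had 1691, 1486, 1597 and 1719 against 1855, 2177, 2394 and 2414 (0.45 ± 0.10, edgeR adjusted p = 0.570). It kept 0.40 without ND_B12 4 and 0.53 without ND_B12 1, and the same-date pair gave 0.11. Nr3c1, the glucocorticoid receptor, was at 0.18 ± 0.07, and Sirt1, an NAD-dependent deacetylase, at 0.12 ± 0.06. H1f0, a linker histone, was at 0.23 ± 0.11, and of the 7 linker histone genes 3 were higher and 4 lower.

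Transport genes of the tubule showed no common direction beyond a small one. Of 339 solute carriers tested, 203 were higher and 136 lower, with a median of 0.04. With p below 0.05 there were 20 higher and 7 lower, beside 3.67% and 3.95% of all genes. The share was thus above that of all genes for the higher and below it for the lower. Without ND_B12 4 there were 5 higher and 6 lower, beside 520 and 610 of all 25408 genes. Slc22a8, the organic anion transporter OAT3, had 30224, 22830, 25516 and 21300 normalized counts in ND_C and 26418, 35393, 34773 and 37058 in ND_B12 (0.43 ± 0.15). Slc22a7, OAT2, had 9882, 12642, 9005 and 9285 against 9563, 6899, 5513 and 2038, a span set by ND_B12 4 (-0.76 ± 0.36, and -0.48 without it). Slc12a3, the thiazide-sensitive transporter of the distal convoluted tubule, was at -0.21 ± 0.09, Slc26a4, pendrin of intercalated cells, at 0.33 ± 0.15, Scnn1b, a subunit of the epithelial sodium channel, at 0.21 ± 0.08 and Aqp3, a water channel of principal cells, at 0.34 ± 0.13, or 0.20 without ND_B12 4. Marker genes of kidney segments were abundant in all 8 libraries, and most leaned higher: 17 of 19 for the early proximal tubule (median 0.14, and 0.02 without ND_B12 4), 13 of 14 for intercalated cells (0.16), 17 of 19 for podocytes (0.09, and 0.03 without ND_B12 1 and 4), 8 of 12 for the thick limb (0.10), 10 of 13 for the distal convoluted tubule (0.05) and 10 of 14 for principal cells (0.11). The S3 segment went the other way, with 5 of 13 higher and a median of -0.03, or 8 of 13 and 0.04 without ND_B12 4. In whole kidney RNA, fewer cells of a type and less RNA per cell cannot be told apart.

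Endothelial genes were the cell type list with the largest number of low p values among those that leaned higher. Of 19, 18 were higher with B12 and 8 had p below 0.05 beside 3.67% of all genes, with a median of 0.19, and 7 did not overlap beside 2.65% of all genes. Ptprb, the endothelial phosphatase VE-PTP, had 9976, 9195, 8447 and 8969 normalized counts in ND_C and 12135, 10511, 10216 and 12760 in ND_B12 (0.32 ± 0.09). Flt1, VEGF receptor 1, had 6902, 7233, 6307 and 7275 against 8836, 7614, 7861 and 8335 (0.24 ± 0.07). Kdr, VEGF receptor 2, was at 0.26 ± 0.08 and Tek, the angiopoietin receptor, at 0.22 ± 0.07. ND_B12 1 and 4 held the highest values of Ptprb and Flt1. Without both libraries the median was 0.10 with 1 higher gene at p below 0.05, beside 618 of all 25408 genes. Podxl, podocalyxin of podocytes, was at 0.19 ± 0.07. Ccn2, connective tissue growth factor, had 4897, 5607, 6536 and 3780 against 6291, 7978, 8880 and 9044 (0.63 ± 0.15), with ND_B12 1 below ND_C 3. It was the only 1 of 38 fibrosis genes with p below 0.05, and that list had a median of -0.04.

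Immune genes leaned lower. Of 48 interferon-stimulated genes, 44 were lower with B12, 11 of them with p below 0.05 beside 3.95% of all genes, with a median of -0.28. Mx1, an antiviral GTPase, had 73.6, 40.8, 29.4 and 61.4 normalized counts in ND_C and 28.4, 21.8, 28.6 and 17.4 in ND_B12 (-1.09 ± 0.32). Zbp1, a sensor of Z-form nucleic acids, was at -0.78 ± 0.25. ND_C 1 held the highest value of both, and ND_C 3 the lowest control value of both. Without ND_B12 4 the list had 3 lower genes with p below 0.05, beside 610 of all 25408 genes, and a median of -0.23. Without ND_B12 1 it had 14, beside 1279, and a median of -0.31.

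Of 11 MHC class II genes, 10 were lower, 4 with p below 0.05 beside 3.95% of all genes, with a median of -0.33. Without ND_B12 4 the 4 became 1, beside 610 of all 25408 genes lower, with a median of -0.22. Without ND_B12 1 and 4 they became 0, beside 707. H2-Aa, a class II chain of antigen-presenting cells, had 6886, 5765, 5515 and 6175 normalized counts against 5434, 5228, 5194 and 3518 (-0.33 ± 0.15), with a narrow gap between the groups. H2-Ob, which tunes class II loading in B cells, was at -0.71 ± 0.26. Lyz2, lysozyme of myeloid cells, had 1652, 1080, 1057 and 1496 against 915, 871, 887 and 817 (-0.59 ± 0.18), and Fcgr1, a high-affinity Fc receptor, was at -0.97 ± 0.36. C1qb, of the complement C1q made by macrophages, was at -0.28 ± 0.12 and Trac, the constant region of the T cell receptor alpha chain, at -0.45 ± 0.19. Of 22 macrophage and dendritic cell genes 18 were lower (median -0.23, and -0.13 without ND_B12 4), of 18 T and NK cell genes 15 (-0.41) and of 15 B and plasma cell genes 14 (-0.47). The B cell list, without any gene of p below 0.05, had a median of 0.03 without ND_C 1. Immunoglobulin genes, 90 of 128 lower with a median of -0.54, had a median of 0.00 without ND_B12 1 and 4. The adipocyte list had a median of -0.56, and of 0.24 without ND_C 3.

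Genes of injury, proliferation and protein folding leaned lower too. Of 22 tubular injury genes, 19 were lower, 6 with p below 0.05 beside 3.95% of all genes, with a median of -0.34. Without ND_B12 4 the 6 became 2, beside 610 of all 25408 genes lower, and the median -0.25. Havcr1, kidney injury molecule 1, had 225, 157, 417 and 217 normalized counts in ND_C and 206, 104, 106 and 69.6 in ND_B12 (-1.06 ± 0.45). Ccl2, a chemokine for monocytes, was at -1.36 ± 0.53, Timp1, an inhibitor of matrix proteases, at -1.35 ± 0.60 and Cd44, a hyaluronan receptor, at -0.35 ± 0.15, where Timp1 was at 0 in ND_B12 4 and at -0.92 without it. Ccl28, a mucosal chemokine, had 4116, 5053, 7898 and 1460 against 3385, 1780, 1326 and 774 (-1.35 ± 0.51), with ND_C 4 inside the B12 range. Of 33 cell cycle genes 26 were lower, 8 with p below 0.05 beside 3.95% of all genes, with a median of -0.25. Without ND_B12 4 the 8 became 3, beside 610 of all 25408 genes lower, with a median of -0.31. They became 13 without ND_B12 1, beside 1279, and 12 without both, beside 707, with a median of -0.42. Mki67 had 593, 529, 478 and 450 against 508, 267, 311 and 385 (-0.47 ± 0.21), and Prc1, of the mitotic spindle midzone, was at -0.64 ± 0.23. Of 20 heat shock and cold genes 18 were lower and of 27 unfolded protein genes 21, with medians of -0.16 and -0.10, and -0.33 and -0.16 without ND_B12 1. Hspa5, the chaperone BiP, had 46038, 42318, 39066 and 38222 against 45448, 32275, 31711 and 30314, and Manf, secreted under stress of the endoplasmic reticulum, 5362, 4816, 4217 and 3651 against 4607, 3192, 3090 and 3039. In both ND_B12 1 lay among the controls, as it did for the clock genes, and the differences were -0.24 ± 0.12 and -0.37 ± 0.16 with all libraries and -0.39 and -0.53 without it.

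**Figure D5:**
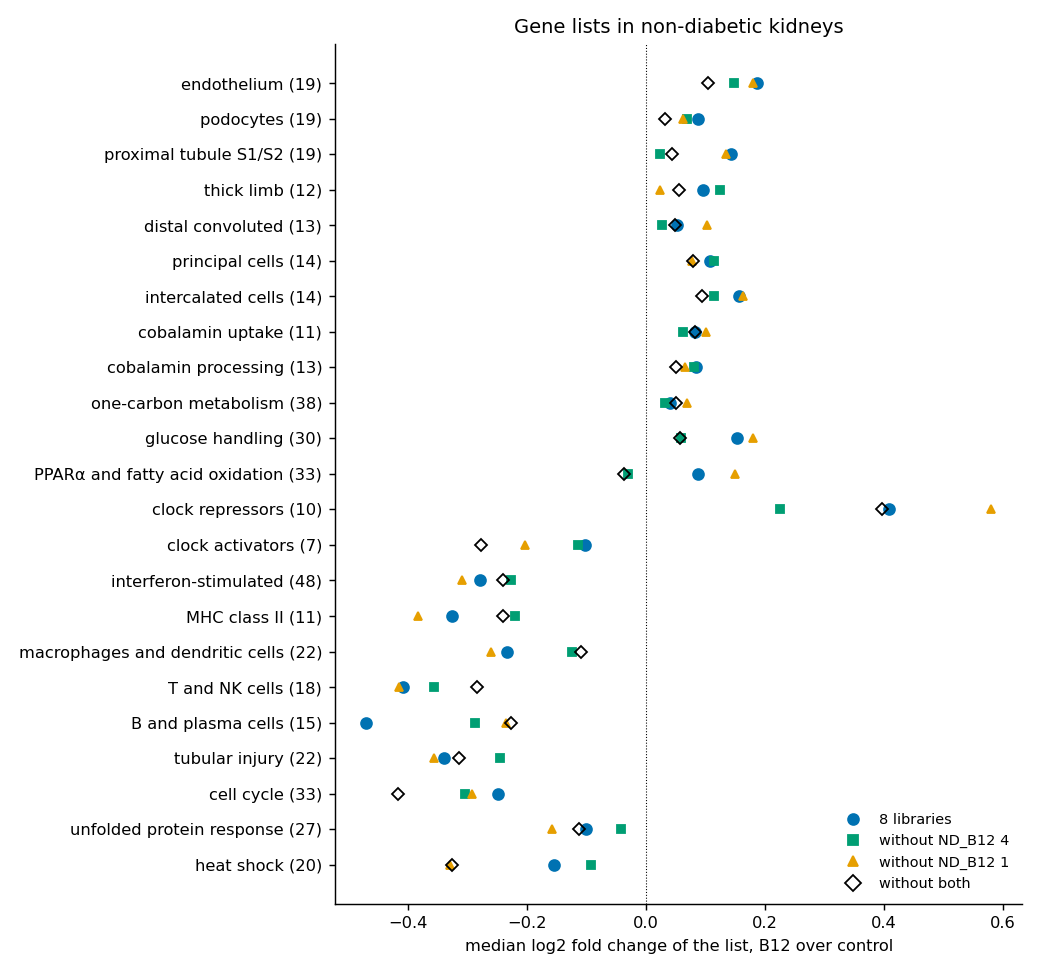
Median log2 fold change of B12 over control (horizontal axis) of 23 gene lists, with the number of genes tested in brackets, for all 8 libraries and without ND_B12 4, without ND_B12 1 and without both. The interferon, MHC class II, macrophage, T cell, B cell, injury and cell cycle medians stay below 0 in all 4 settings, and the median of PPARα and fatty acid oxidation genes drops from 0.09 to -0.03 without ND_B12 4.

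Whether these differences were particular to non-diabetic kidneys was tested by the interaction of diabetes and B12. No gene had an adjusted p below 0.05 (edgeR, smallest adjusted p = 0.0521), while 4093 genes had an unadjusted p below 0.05 (16.1%), more than the 3468 (13.6%) of B12 in diabetic kidneys. The count depends on single libraries: without ND_B12 1, 200 genes passed, without ND_C 4, 113, without ND_B12 4, 0, and DESeq2 called 923. D_C 1 and ND_B12 4, which lie among the other label on the diabetes index, both enter this test. In the arrangement that the published group means match, the libraries labelled D_C, other than D_C 1, and those labelled D_B12 change places. The direction of B12 in diabetic kidneys, and with it each interaction given below, therefore rests on the labels. Car9 was 0.71 ± 0.21 in non-diabetic and -1.02 in diabetic kidneys (adjusted p of the interaction = 0.0521, edgeR). Ppara was 0.40 and -0.34 (adjusted p = 0.0554), Hk1 0.22 and -0.47 (0.0554), Mtarc1 1.03 and -1.06 (0.0761), Ptprb 0.32 and -0.19 (0.0800) and Nampt 0.24 and -0.39 (0.0644). Without ND_B12 1, the adjusted p of the interaction was 0.0144 for Ppara, 0.0391 for Car9 and 0.0392 for Hk1.

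Under the labels, many clock genes had opposite signs in the non-diabetic and the diabetic kidneys. Bmal1 was -0.58 in non-diabetic and 1.59 in diabetic kidneys (adjusted p of the interaction = 0.125, edgeR), Dbp 0.48 and -1.24 (0.119), Per1 0.75 and -0.55 (0.0933), and Cry1 0.68 and -0.89 (0.0672). The clock scores of the diabetic libraries were 1.28 to 1.97 in D_C and -0.66 to 0.18 in D_B12, against -0.67 to 1.48 in ND_C, so the scores of the control groups also differed. Of 19 endothelial genes, 14 had an interaction p below 0.05 beside 16.1% of all genes, with a median of 0.19 in non-diabetic and -0.24 in diabetic kidneys. Of the immune lists, none of the 11 MHC class II genes and 5 of the 48 interferon-stimulated genes had an interaction p below 0.05, and their medians in diabetic kidneys were -0.37 and -0.32. Mx1 was -1.09 in non-diabetic and -1.11 in diabetic kidneys, and Lyz2 -0.59 and -0.64. The cobalamin genes had 2 of 11 and 3 of 13 with an interaction p below 0.05, near the 16.1% of all genes, among them Mtr, at -0.05 and 0.29 (adjusted p of the interaction = 0.209, edgeR).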

How the data were processed

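Kidney total RNA of 16 male mice was sequenced by the authors. Per the labels and the methods of the study, base calls were made with bcl2fastq 2.20.0, reads were aligned to GRCm39 with STAR, and StringTie gave the deposited estimated counts per gene, which are whole numbers; whether counting used strand is not given in the sources used here. A deposited transcript table was not used. StringTie's estimates derive from coverage, so reads of overlapping or near-identical genes can be shared among them.

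Groups are those of the labels; the study's published group means match another arrangement, with ND_B12 1 as ND_C, ND_C 3 and D_C 1 as ND_B12, ND_B12 4 and D_C 2 to 4 as D_B12, and the libraries labelled D_B12 as D_C. Every direction here is that of the labels. Libraries held 65311948 to 84763426 counts in the 8 compared. Genes with at least 100 counts over 16 libraries were fitted with edgeR 4.0.16 (TMM, quasi-likelihood test, common biological coefficient of variation 0.201, 12 residual degrees of freedom) on 4 group means, two-sided, with Benjamini-Hochberg adjustment over all genes at 0.05. Nothing says that samples of a group came from separate cages or litters, so p-values measure the spread between these samples. SE is the log2 fold change over the root of the F statistic. Normalized counts are counts over median-of-ratios size factors, and log2 CPM used a prior count of 2. DESeq2 1.42.0 and the other settings are alternatives, and exact permutation tests of 4 against 4 reach 0.0286 at best. The code was tested on simulated counts. Gene lists have no test of their own. Positions are from GENCODE and promoters from RefSeq.

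The members and gene lists were chosen with earlier results of these data known. Named genes are, per direction, 12 past the adjusted threshold and free of overlap, filled by unadjusted p among genes free of overlap with a log2 fold change of 0.5 or more either way and a mean of at least 50 normalized counts; all clock activators and repressors and 6 outputs; the cobalamin genes; and up to 4 genes of each other list by smallest p, of which some are left unnamed. Results for some genes that meet this rule are not reported here.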

Additional observations from a re-analysis of the deposited data

Results flagged for a closer look

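In 212 groups of 4 libraries, a value stood apart from the other 3 by a gap past Dixon's 95% critical value in 18, and chance flags about 1 group in 20. Most of the flags fell on ND_B12 1 or ND_B12 4. In ND_B12 1, Bmal1 had 1063 normalized counts beside 226 to 254 in the other B12 libraries, Cry2 had 1252 beside 2318 to 2465, Hlf 10050 beside 13196 to 13796, Mthfd1l 78.6 beside 174 to 191, Hspa5 45448 beside 30314 to 32275 and Manf 4607 beside 3039 to 3192, and the clock score was -0.37 beside 1.89 to 2.15. In ND_B12 4, Apob had 100286 normalized counts beside 56491 to 58816, Txnip 60751 beside 30828 to 34271, Cubn 98614 beside 80117 to 82892, H2-Aa 3518 beside 5194 to 5434 and Kif5a 71.6 beside 131 to 139. ND_B12 3 had 117 normalized counts of Bmal2 beside 50.6 to 60.9. Among the controls, ND_C 1 was low for Hlf (8559 beside 10322 to 10495) and Ppara (6663 beside 7029 to 7087), ND_C 3 for Bmal2 (23.8 beside 58.7 to 64.6) and ND_C 4 for Cntf (0 beside 78.2 to 84.5), and ND_C 4 was high on the diabetes index (0.267 beside 0.037 to 0.062).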

How the results depend on the processing

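The count of genes called for B12 was 0 with edgeR under every scaling, filter and covariate tried, 6 with DESeq2, and 0 to 2 when single libraries were left out (2 without ND_C 3). It was 810 at an unadjusted p below 0.05 with a log2 fold change of 0.5 or more in either direction. The replicate numbers did not pair the samples, with correlations of deviations of -0.02, -0.01, 0.00 and 0.10 for numbers 1 to 4, and a replicate block left 0 genes called and 1983 with an unadjusted p below 0.05. For the interaction the count of 0 became 923 with DESeq2, 147 with the replicate block, 5 without ND_B12 1 and 4, 2 without ND_C 3 as well, and 0 to 200 when single libraries were left out, with 113 without ND_C 4 and 200 without ND_B12 1. Without ND_B12 4 and D_C 1 together, an alternative chosen after seeing the data, 1319 genes had an unadjusted p below 0.05 for B12 and 0 were called. With no filter beyond 1 count, 40826 genes were tested and 0 called. Of 106 named genes, 102 kept their sign under all 19 alternatives. Many of the genes were chosen for groups that do not overlap or for a small p, which by itself makes a change of sign unlikely. Bhlhe40 (-0.08) went from -0.175 to 0.0371 over single left-out libraries and was 0.106 without ND_B12 1 and 4, 0.0658 without ND_C 3 as well and 0.0370 without ND_B12 4 and D_C 1. Mtr (-0.05) went from -0.154 to 0.00957 and was 0.00958 without ND_B12 4 and D_C 1. Amn (-0.01) went from -0.0288 to 0.0132, and Mmachc (0.02) from -0.0198 to 0.0768, with -0.00881 under upper-quartile scaling. The causes were not tested. Of 912 medians of lists under alternatives, 7 moved by over 1 SD of the list's genes, in the lists of adipocytes, adrenal, B cells, neutrophils, urothelium and mitochondrial genes. Depth limits the genes with few counts, and 4 libraries a side with label dates that hardly overlap limit the rest.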

Other observations

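Some further lists gave no clear direction or a slight one. Of 99 ribosomal protein genes, 87 were higher with B12, by a median of only 0.04, with 1 at an unadjusted p below 0.05 beside 3.67% of all genes. Of 13 genes encoded by the mitochondrial genome, 11 were lower, with a median of -0.05 and none at p below 0.05. In diabetic kidneys 12 of the 13 had p below 0.05 beside 13.6% of all genes (median 0.26), a direction that rests on the labels. Summed, these genes took 83203 CPM in D_C 3, 113372 to 117127 in the other D_C libraries and 123823 to 131073 in D_B12. Of 57 core histone genes 39 were lower (median -0.09), and of 24 cholesterol synthesis genes 14 were lower (-0.02). Of 43 genes of the NRF2 and redox list 26 were higher (0.02), 5 of them with p below 0.05 beside 3.67% of all genes. None of this list had p below 0.05 without ND_B12 4, beside 520 higher and 610 lower of all 25408 genes. Of 67 cytochrome P450 genes, a list that includes liver genes, 46 were higher, 4 with p below 0.05 beside 3.67% of all genes. Without ND_B12 1 the 4 became 11, beside 1164 of all 25408 genes. Of 25 immediate early genes, 18 were higher (median 0.11, and 0.03 without ND_B12 4). Of 11 urothelium genes 10 were lower (-0.70, and -1.16 without ND_B12 4 and -0.37 without ND_B12 1). Their summed CPM were 4.7 to 45.0 in ND_C and 9.1 to 31.2 in ND_B12, so that the summed level varied more within the controls than between the groups.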
